A study of Mus musculus with 18 samples.

Results

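The genes described here encode the proteins of the mitochondrial ribosome. They are all rows of the expression table whose gene name begins with Mrpl or Mrps followed by a digit, leaving out names that carry the pseudogene suffix. The rule gave 77 genes of 15698 named genes, 48 of them named Mrpl and 29 named Mrps, spread over 17 chromosomes in RefSeq's GRCm38.p6 annotation. It left out 5 pseudogene rows, Mrps36-ps1, Mrps36-ps2, Mrpl27-ps, Mrpl23-ps1 and Mrpl48-ps. By structure 50 of the proteins belong to the large subunit and 26 to the small one, while Mrps36 is known as part of the 2-oxoglutarate dehydrogenase complex. Mrps30 and Mrps18a are named for the small subunit but sit in the large one.

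The mitochondrial ribosome translates the messages encoded by mitochondrial DNA, whose products are core subunits of the respiratory chain and of ATP synthase. Its RNA is made in the mitochondrion, but its proteins are encoded in the nucleus, made in the cytosol and imported. Some of them have relatives in the bacterial ribosome, among them the decoding proteins of the small subunit and the stalk where translation factors dock, and others are particular to mitochondria. Resting T cells have few and small mitochondria, and activated T cells grow and expand their mitochondrial mass before and during division.

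The series asked how the strength of the signal through the T cell receptor during activation shapes the differentiation of CD4+ T cells. Messenger RNA 3′ ends were sequenced in 18 libraries, 3 in each of 6 groups. CD4+ T cells of 5CC7 mice, whose transgenic receptor recognises a cytochrome c peptide, came from spleen and lymph node and were activated for 4 days with the peptide pPCC at 0.01, 0.1, 1.0 or 10 µM. The peptide was presented by P13.9 cells, a fibroblast line. Naive CD4+ T cells from the same tissues and P13.9 cells alone were the other groups. The design text names 5CC7 for the activated cells only. The labels do not tie the libraries of a group to separate animals, so every p-value below measures the spread between these samples, which may be technical.

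Depth differed between groups: naive libraries held 27789 to 97757 recovered reads in named genes, activated ones 156941 to 733009 and P13.9 ones 201627 to 352001. A mitochondrial ribosomal protein gene had a median of 5 reads over the 3 naive libraries together, against 163 at 10 µM and 134 at 0.01 µM. Levels are normalized values, read counts that the authors divided by 1 size factor per library, and 1 read was worth 2.17 to 6.55 in naive cells. T cell markers were higher in every T cell library than in P13.9, and fibroblast markers were highest in P13.9. Summed values of 11 T cell markers were 369 to 389 at 10 µM, 216 to 243 at 0.01 µM, 332 to 411 in naive cells and 3.98 to 8.69 in P13.9 (Cd3e and Cd5 at 0). Of 16 fibroblast markers, 12 were rows of the table, and their sums were 8.76 to 18.2 at 10 µM, 133 to 200 at 0.01 µM, 52.4 to 67.1 in naive cells (Col1a1, Col5a1 and Loxl1 at 0) and 680 to 800.3 in P13.9. Judged by 6 of these markers, the estimated P13.9 share was 24.8% to 39.8% in the 0.01 µM libraries and 4.76% to 10.8% at 0.1 µM. It was 3.29% to 5.76% at 1.0 µM and 1.03% to 2.18% at 10 µM. The same estimate gave 2.67% to 5.91% in naive libraries, a background that no library at 1.0 or 10 µM exceeded. A second set of 12 genes, chosen to have no naive read, put the 0.01 µM share at 18.6% to 22.3%. By this set the shares were 4.07% to 7.60% at 0.1 µM, 3.78% to 7.92% at 1.0 µM and 2.12% to 2.79% at 10 µM. Summed values of 8 myeloid markers were 85.2 to 126 in naive cells, and at most 11.1 in any other library. The numbers in the sample descriptions run in 1 range for naive cells, P13.9, 0.01 µM and 1.0 µM and in another for 0.1 µM and 10 µM. What these numbers record is not given, so 10 against 0.1 µM and 1.0 against 0.01 µM are given beside the other comparisons as comparisons within a range.

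Mitochondrial ribosomal protein genes took up a larger share of the messenger RNA in every activated library than in any naive one, and the 3 libraries at 10 µM were the highest of all 18. Their share of the reads in named genes was 0.313%, 0.253% and 0.230% in naive cells. It was 0.644%, 0.644% and 0.774% at 0.01 µM, 0.761%, 0.703% and 0.702% at 0.1 µM, 0.706%, 0.634% and 0.739% at 1.0 µM, and 0.933%, 0.904% and 0.901% at 10 µM. P13.9 cells had 0.498%, 0.543% and 0.531%, between naive and activated T cells. The 3 lower doses overlapped each other, and none of their libraries reached the lowest library at 10 µM. The exact 95% binomial interval of the smallest library, naive 1, was 0.251% to 0.386%, which covers counting error only, and its upper end lay below every activated library. Summed normalized values were 1163 ± 30.7 at 10 µM, 865 ± 116 at 0.01 µM and 528 ± 41.5 in naive cells (mean ± SD, n = 3 each). In libraries of whole samples, fewer cells of a type and less RNA per cell cannot be told apart.

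**Figure D1:**
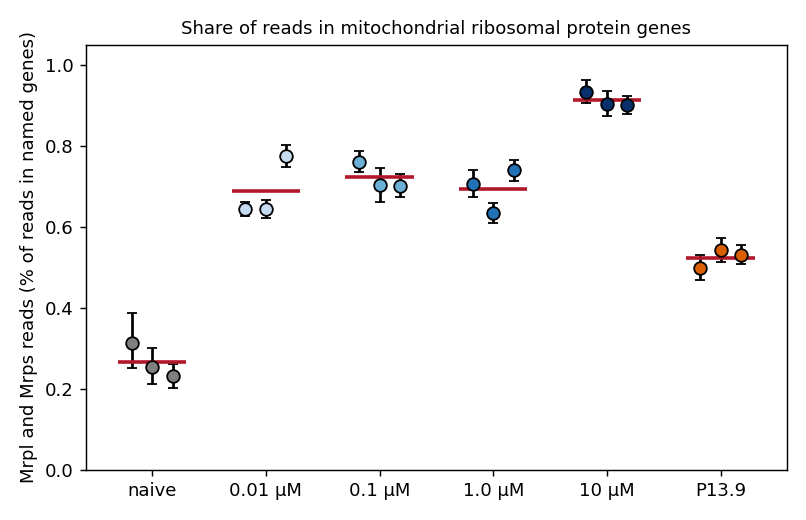
Reads in the 77 mitochondrial ribosomal protein genes as a percentage of all reads in named genes (vertical axis), by group (horizontal axis). Points are libraries with exact 95% binomial intervals and red lines are group means. The 3 libraries at 10 µM lie at 0.901% to 0.933%, above every other library, and the naive ones lie at 0.230% to 0.313%.

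The shares of the cytosolic ribosome and of the mitochondrial messages were ordered differently. The 88 cytosolic ribosomal protein genes took 5.45% to 6.04% of the reads at 10 µM, inside or below the 5.88% to 6.52% at 0.1 µM, and 4.06% to 4.88% at 0.01 µM, while naive cells had 4.56% to 4.76%. The 7 mitochondrially encoded protein genes in the table, which are the messages that the mitochondrial ribosome reads, took 1.63% to 1.90% at 10 µM and 1.93% to 2.08% at 0.01 µM, against 5.23% to 5.73% in naive cells. Between the subunits, the summed value of the large subunit was 1.74 to 1.78 times that of the small one at 10 µM, 1.78 to 1.97 times at 0.01 µM and 1.90 to 2.72 times in naive cells. As shares of a library, every activated library had more reads for the mitochondrial ribosome's proteins and fewer for its templates than every naive library. The same held for every P13.9 library.

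Set against naive cells, more mitochondrial ribosomal protein genes rose than fell at every dose. Pooled over the 77 genes and scaled by the authors' size factors, which narrow the gap seen in the shares of reads above, reads were 2.26 times the naive level at 10 µM (exact 95% counting interval 2.06 to 2.49), and 1.64 (1.49 to 1.81), 1.91 (1.74 to 2.11) and 1.79 (1.62 to 1.97) times at 0.01, 0.1 and 1.0 µM. The test per gene was limma on log2(value + 1), run on genes that reached 5 in 3 or more libraries, with calls at an adjusted p below 0.05. It tested 69 of the 77 genes. At 10 µM 42 rose and 2 fell, where 24.3% of all 7264 genes tested rose and 32.8% fell. The median log2 change was 1.47 over the 69 genes and -0.07 over all genes. At 1.0 µM 34 rose and 3 fell (23.3% and 31.4% of all genes), at 0.1 µM 35 and 4 (24.9% and 31.5%), and at 0.01 µM 29 and 3 (21.7% and 27.7%). Without library C of 0.01 µM, the last count of 32 calls fell to 19, and the share of all genes called in that fit is not given. The 4 comparisons share the naive libraries. Myeloid markers and depth, given above, also differed between naive and activated libraries, and their part in these results was not tested.

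Naive levels rest on few reads, and log2(value + 1) understates low levels, so the recovered reads were also tested with edgeR. It called 50 genes higher and 1 lower at 10 µM, with 29.6% of all genes higher and 25.3% lower. Without naive 3 it called 33 in all, and the share of all genes called in that fit is not given. At 1.0, 0.1 and 0.01 µM it called 40, 44 and 39 higher (27.6%, 28.5% and 26.6% of all genes) and 1, 1 and 0 lower (22.8%, 22.9% and 19.2%). Under its scaling the median of all genes at 10 µM moved to 0.33, and that of the 69 genes was 2.0. The values of 39 of the 69 genes lay above all naive values at 10 µM and those of 3 below them, against 22.5% and 33.7% of all genes. By structure, limma called 18 of 23 small subunit genes higher and 0 lower at 10 µM, with a median log2 change of 1.83. For the large subunit it called 24 of 46 higher and 2 lower, with a median of 1.13, and the difference between the subunits was not tested.

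Of the 77 genes, 8 had no naive read at all: Mrpl4, Mrpl22, Mrpl37, Mrpl42, Mrpl53, Mrps18b, Mrps27 and Mrps31. The largest log2 changes against naive cells belong to this group, and since no fold can be taken against 0 reads, they are given as bounds against 3 naive reads over the group. Mrpl37, a large subunit protein particular to mitochondria, had 22.6, 17.1 and 16.7 at 10 µM and 0 in each naive library, at least 5.39 times higher. Mrpl42, another of the mitochondrial additions to the large subunit, had 12.7, 14.7 and 10.3 at 10 µM, at least 3.53 times the naive floor. Mrpl4, whose bacterial relative lines the peptide exit tunnel, had 15.3, 10.3 and 11.1 at 10 µM (at least 3.53 times). Mrps27, a repeat protein of the small subunit, had 8.76, 15.1 and 11.3 (at least 3.33 times). With no naive read, these genes could pass the filter only through activated libraries, so no p-value is given for them. They are also among the genes counted above as called higher. Mrpl37 and Mrps27 overlap other genes in RefSeq (Cyb5rl and 6430562O15Rik), and whether reads were counted by strand is not given, so reads of such pairs cannot be told apart. In all, 24 of the 77 genes overlap another gene.

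Mrps12, which forms part of the decoding site, had enough naive reads for a ratio. Its values were 41.8, 33.9 and 41.0 at 10 µM and 13.1, 7.81 and 10.8 in naive cells, and the lowest value at 10 µM was above the highest naive one. The log2 change was 1.81 ± 0.24 (limma SE, adjusted p = 1.24e-05), and the ratio of reads was 3.82 (exact 95% counting interval 1.99 to 8.40). Mrps25, a small subunit protein particular to mitochondria, had 12.4, 12 and 11.1 at 10 µM against 0, 0 and 2.17 in naive cells. With 1 naive read its ratio of 10.2 has a counting interval of 1.80 to 406, although limma gave a log2 change of 3.13 ± 0.41. Mrps25 too could pass the filter only through activated libraries, so its p-value is not given.

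A few genes went the other way. Mrpl50, a large subunit protein particular to mitochondria, was lower than in naive cells at every dose. It had 6.55, 11.7 and 13 in naive cells, 4.35, 4.17 and 4.72 at 0.01 µM, 2.74, 1.74 and 1.66 at 0.1 µM, 2.10, 2.01 and 1.23 at 1.0 µM, and 1.41, 2.40 and 3.45 at 10 µM. No activated library reached the lowest naive one. That value, 6.55 in naive 1, was 1 read, and any gene with a read there has at least this value. At 1.0 µM the log2 change was -2.01 ± 0.36 (limma, adjusted p = 0.000236; edgeR, adjusted p = 0.00956), and at 0.01 µM it was -1.03 ± 0.36 (limma, adjusted p = 0.0264; edgeR, adjusted p = 0.296). Mrpl32, a large subunit protein that must be cut by a mitochondrial protease before it assembles, was the other gene that fell at 10 µM, with 12.4, 5.82 and 9.77 against 13.1, 23.4 and 19.5 in naive cells. Its limma adjusted p was 0.0296, and edgeR gave 0.523.

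Differences between peptide doses were smaller in size than those from naive cells. At 10 µM, 52 of the 77 genes had their highest mean over the 4 doses, and 37 had their lowest at 0.01 µM. These counts include 8 genes too low to be tested, and the shares of all genes are not given. Comparing 10 with 0.01 µM, the median log2 change of the 69 tested genes was 0.39, with 56 of them above 0, where the median of all genes was -0.03 and 46.8% lay above 0. The limma fit over the 15 naive and activated libraries, which share 1 estimate of the spread, called 2 genes higher and 0 lower, against 1.9% and 6.25% of all genes. Without the naive libraries, the same test on the 12 activated libraries called 17 of 67 higher and 1 lower (14.8% and 17.7% of all genes), and edgeR called 22 of 69 higher and 0 lower (15.5% and 19.3%). All 17 genes were among the 22 of edgeR. These counts rest on few libraries: edgeR called 9 genes without library A of 0.01 µM and 14 without library B. In the same order, the fit on activated libraries called 10 and 7, and it called 11 without library A of 10 µM. The shares of all genes called in these smaller fits are not given. The lower counts are therefore not read as a result about these genes.

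The genes called by the fit over 15 libraries were Mrps12 and Mrpl17. Mrps12, the decoding protein, had 18.4, 18.8 and 26.7 at 0.01 µM, 30.8, 21.8 and 22.4 at 0.1 µM, 25.2, 31.4 and 27.7 at 1.0 µM, and 41.8, 33.9 and 41.0 at 10 µM. All 3 libraries at 10 µM lay above the 9 of the lower doses. The log2 change of 10 over 0.01 µM was 0.85 ± 0.24 (limma, adjusted p = 0.0380; edgeR, adjusted p = 0.000300), and the slope was 0.27 ± 0.07 per 10-fold dose (limma, adjusted p = 0.0405). It was the 1 gene of the 69 with a called slope, where 1.39% of all genes had a rising and 5.13% a falling one. P13.9 cells had 10.7, 16.0 and 15.9, below every 0.01 µM library, and when the P13.9 share was subtracted from each library the change was 0.56 by the marker list and 0.70 by the second set, neither called by limma (adjusted p = 0.223 and 0.115).

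Mrpl17, a large subunit protein with a bacterial relative, had 14.1, 14.8 and 8.77 at 0.01 µM, 19.8, 16.6 and 18.6 at 0.1 µM, 14.7, 16.0 and 19.98 at 1.0 µM, and 22.6, 31.9 and 21.3 at 10 µM. The lowest value at 10 µM was above every lower dose. The change over 0.01 µM was 0.96 ± 0.27 (limma, adjusted p = 0.0416; edgeR, adjusted p = 0.000663). P13.9 cells had 11.5, 22.1 and 24.3, so that 1 of their libraries lay inside the range of the 0.01 µM libraries and the other two above it, and subtracting the P13.9 share by the marker list gave 1.60 (limma, adjusted p = 0.0512) and by the second set 1.15 (limma, adjusted p = 0.0448). Leaving out 1 library at a time ended the limma call of Mrpl17 in all 6 cases and that of Mrps12 in 5 of them, with adjusted p from 0.0689 to 0.200 for Mrpl17 and from 0.0462 to 0.161 for Mrps12.

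**Figure D2:**
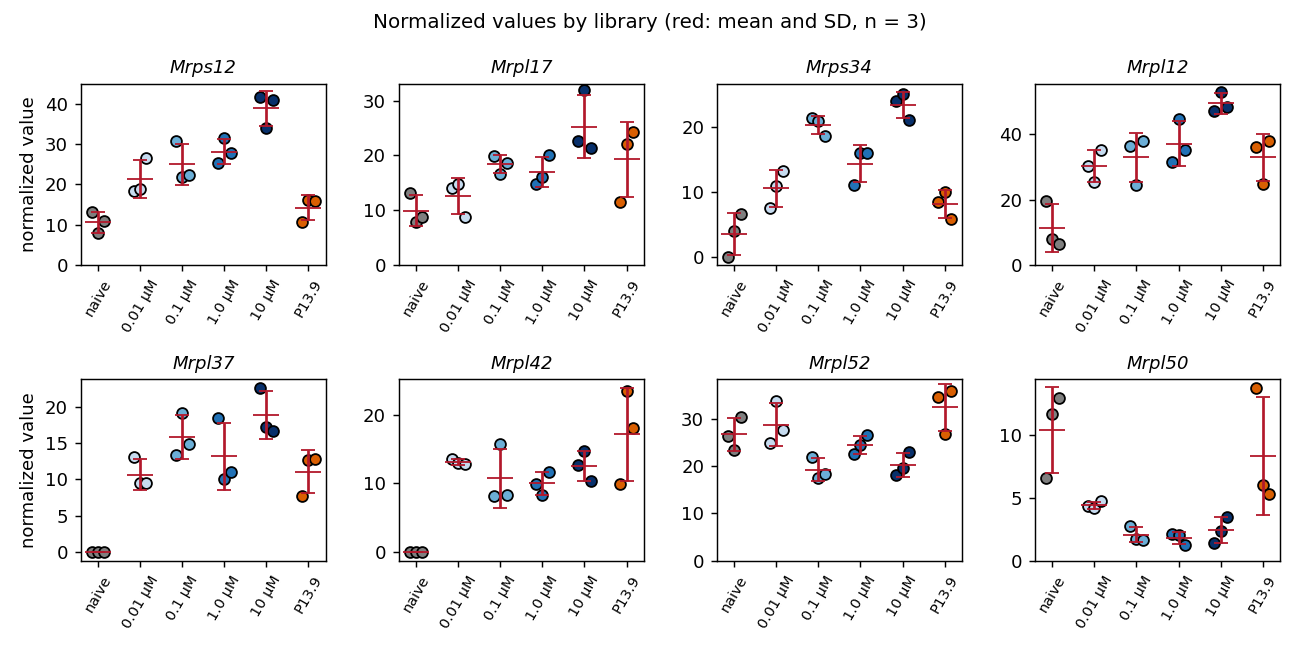
Normalized values (vertical axes, a separate scale for each gene) of 8 mitochondrial ribosomal protein genes in every library, by group (horizontal axes). Points are libraries, and red marks are means with SD (n = 3). Mrps12, Mrpl17 and Mrpl12 are highest at 10 µM, Mrpl37 and Mrpl42 have no naive read, and Mrpl50 has its highest mean in naive cells.

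The gene with the widest range over the doses relative to its replicates was Mrps34, a small subunit protein particular to mitochondria. It had 7.54, 10.9 and 13.2 at 0.01 µM, 21.3, 20.9 and 18.6 at 0.1 µM, 11, 16.0 and 16.0 at 1.0 µM, and 24.0, 25 and 21.1 at 10 µM. The higher groups, 0.1 and 10 µM, are also those of the other number range, so dose and range cannot be told apart for this order. Its change between 10 and 0.01 µM was 1.11 ± 0.53 in the limma fit over 15 libraries (adjusted p = 0.239), and edgeR called it (adjusted p = 8.62e-05). Mrpl34, a short protein of the large subunit, followed the same order with means of 12, 22.0, 16.6 and 23.0 from 0.01 to 10 µM (edgeR, adjusted p = 0.000530 for 10 against 0.01 µM). The narrowest range relative to its replicates belonged to Mrpl39, with means of 4.78, 5.66, 5.72 and 5.85 over the same doses. Its replicates were widely spread, with an SD of 0.503 on log2. Its log2 range of 0.278 was wider than the 0.128 of Mrpl57.

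The other genes that edgeR called higher at 10 than at 0.01 µM were Mrpl2, Mrpl11, Mrpl12, Mrpl14, Mrpl15, Mrpl20, Mrpl27, Mrpl28, Mrpl37, Mrpl44, Mrpl54 and Mrps30 of the large subunit and Mrps9, Mrps16, Mrps24, Mrps26, Mrps27 and Mrps35 of the small one. Examples picked after their values were seen are Mrpl20 and Mrps16. Mrpl20 averaged 59.5 ± 4.5 at 10 µM and 38.2 ± 6.7 at 0.01 µM (SD, n = 3 each). Mrps16 averaged 38.9 ± 5.5 at 10 µM and 24.1 ± 6.7 at 0.01 µM. Both subunits were represented, with 14 of 46 large and 8 of 23 small subunit genes called.

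Within a number range, the values at 10 µM stood above those at 0.1 µM without overlap for 22 of the 69 genes and below for 0, against 8.56% and 12.4% of all genes. The median log2 change was 0.21 over the 69 genes and -0.03 over all genes. The numbers against 1.0 µM, across ranges, were 22 and 0, against 9.06% and 10.5%, with medians of 0.34 and -0.01. Neither limma nor edgeR called any of the 69 genes in either comparison. An unadjusted p below 0.05 was reached by 2 genes against 0.1 µM in limma and 12 in edgeR, and by 0 and 19 genes against 1.0 µM. Of all genes, 5.11% and 12.8% reached it against 0.1 µM in limma and edgeR, and 5.23% and 15.3% against 1.0 µM. After adjustment, limma called 0.0138% of all genes higher and 0.0826% lower against 0.1 µM and 0.0138% and 0.0688% against 1.0 µM. EdgeR called 0.344% and 1.18% against 0.1 µM and 0.688% and 1.72% against 1.0 µM. For 9 of the 69 genes every library at 10 µM was above all 9 libraries of the lower doses, and for 0 genes below them, against 2.59% and 2.77% of all genes. The 9 genes were Mrpl11, Mrpl12, Mrpl17, Mrpl20, Mrpl49, Mrps12, Mrps26, Mrps27 and Mrps30, a list that follows from this count alone.

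Between the lower doses, the limma fit over 15 libraries called 0 of the 69 genes for 0.1 against 0.01 µM (2.18% of all genes higher, 3.41% lower), 1.0 against 0.01 µM (1.64% and 2.66%) and 1.0 against 0.1 µM (0.0% and 0.0%), with 3, 1 and 0 genes at an unadjusted p below 0.05, against 19.4%, 16.8% and 1.51% of all genes. The median log2 changes were 0.14, 0.03 and -0.05. EdgeR called 6 higher at 0.1 than at 0.01 µM, Mrps34, Mrpl34, Mrps16, Mrps24, Mrps35 and Mrpl44, and 1 lower, Mrpl52 (11.3% and 12.7% of all genes). The limma fit on the 12 activated libraries called the same genes except Mrps35, 5 higher and 1 lower (14.7% and 14.4% of all genes), and 0 in the other pairs of lower doses. For 1.0 against 0.01 µM edgeR called 0 higher and 1 lower, Mrpl50 (10.7% and 11.6% of all genes), and for 1.0 against 0.1 µM none.

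Mrpl52 ran the other way and is described for that reason. This large subunit protein particular to mitochondria had 24.8, 33.6 and 27.7 at 0.01 µM, 22.0, 17.4 and 18.2 at 0.1 µM, 22.6, 24.4 and 26.4 at 1.0 µM, and 18.1, 19.5 and 23.0 at 10 µM. The values at 10 µM all lay below those at 0.01 µM, with a log2 change of -0.48 ± 0.20 (limma, adjusted p = 0.171). The fit on the 12 activated libraries called it lower (limma, adjusted p = 0.0416), and edgeR did not (adjusted p = 0.0701). P13.9 cells had 34.5, 26.7 and 35.8, and after subtracting the P13.9 share by the marker list the change was -0.50. The values of 5 of the 69 genes, Mrpl1, Mrpl50, Mrpl52, Mrps18c and Mrps21, lay below those of 0.01 µM at 10 µM without overlap and those of 32 above, against 28.1% and 21.8% of all genes.

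**Figure D3:**
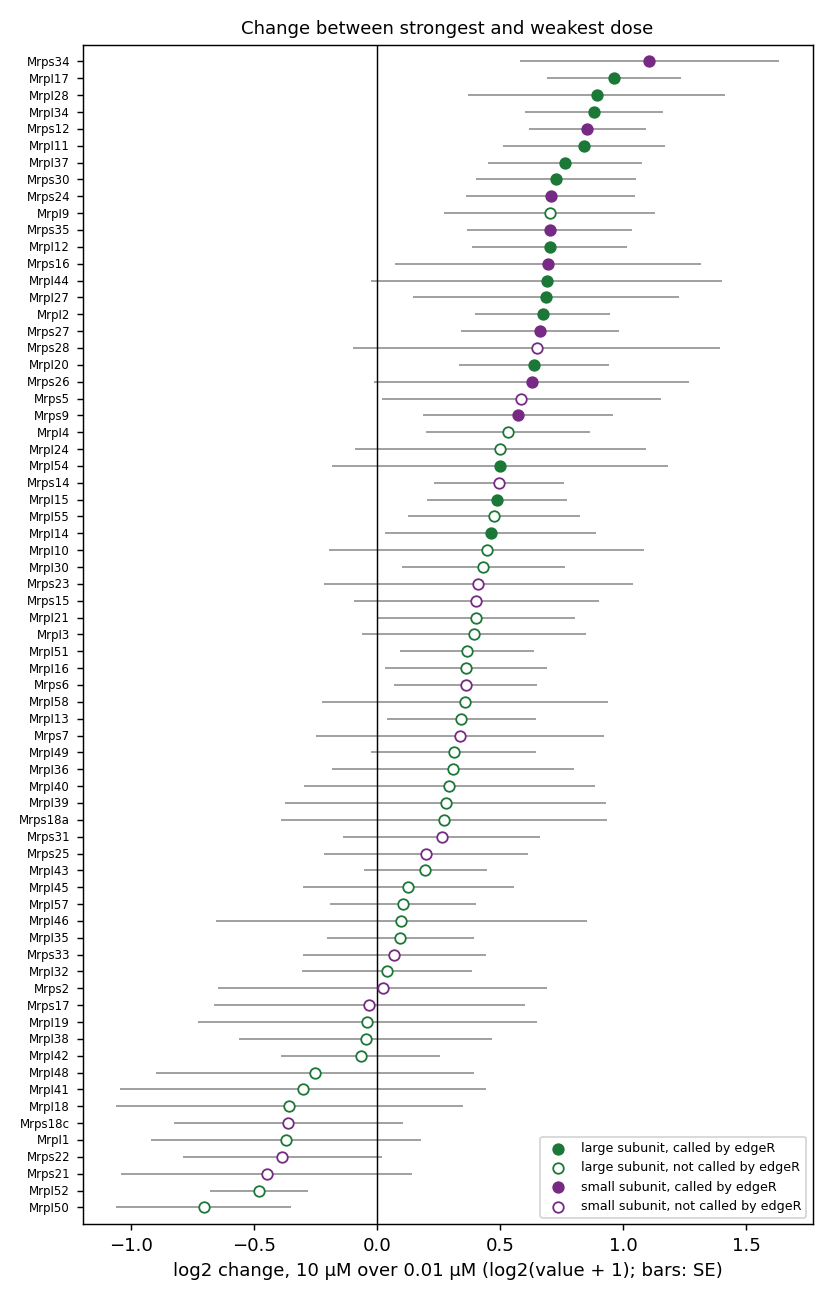
Log2 change of 10 over 0.01 µM (horizontal axis, on log2(value + 1), with bars of 1 limma SE) for the 69 tested genes (vertical axis, ordered by change). Green marks large and purple small subunit genes, and filled points are the 22 genes that edgeR called. Most points lie right of 0, with Mrps34 highest at 1.11, and Mrpl52 at -0.48 and Mrpl50 at -0.71 lowest.

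The P13.9 share of the 0.01 µM libraries moved with this comparison. P13.9 cells had a lower share of mitochondrial ribosomal protein reads than any activated library. Subtracting the share and rescaling the rest gave a median change of 0.31 by the marker list and 0.33 by the second set, against 0.39 without it. The fit on the 12 activated libraries called 18 of 67 genes before subtraction. After subtraction it called 8 of 68 (all higher) by the marker list and 12 of 68 (all higher) by the second set. The share of all genes called after subtraction is not given, so these counts cannot be set against it.

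The sequences before the start sites of 6 of the genes above are printed because these genes carry the results: Mrps12 and Mrpl17 were called between the doses, Mrpl12 and Mrpl34 by edgeR, Mrpl37 had no naive read, and Mrpl52 went the other way. Each line gives the 250 bases before the RefSeq start (GRCm38.p6), 5′ to 3′ on the strand of the gene. Capitals mark matches, on either strand, to CACGTG (the E-box that Myc and Max bind), the NRF1 motif (the letters GCGC repeated after any 2 bases), CCGGAAG (the core of the ETS factor GABP) or AAGATGGCG (a YY1 motif). Matches of different motifs may overlap, since CCGGAAG ends and AAGATGGCG begins with the same letters.
Mrps12 (chr7:28741822-28742071, minus strand): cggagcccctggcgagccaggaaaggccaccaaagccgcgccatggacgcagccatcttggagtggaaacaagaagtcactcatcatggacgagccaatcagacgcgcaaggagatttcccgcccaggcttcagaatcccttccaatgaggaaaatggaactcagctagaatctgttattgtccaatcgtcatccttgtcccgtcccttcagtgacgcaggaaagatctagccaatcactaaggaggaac
Mrpl17 (chr7:105811088-105811337, minus strand): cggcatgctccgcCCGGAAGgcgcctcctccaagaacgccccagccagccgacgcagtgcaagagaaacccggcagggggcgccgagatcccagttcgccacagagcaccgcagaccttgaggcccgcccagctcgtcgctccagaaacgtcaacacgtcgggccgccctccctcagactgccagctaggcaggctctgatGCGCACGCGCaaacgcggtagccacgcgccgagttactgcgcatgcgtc
Mrpl12 (chr11:120484387-120484636, plus strand): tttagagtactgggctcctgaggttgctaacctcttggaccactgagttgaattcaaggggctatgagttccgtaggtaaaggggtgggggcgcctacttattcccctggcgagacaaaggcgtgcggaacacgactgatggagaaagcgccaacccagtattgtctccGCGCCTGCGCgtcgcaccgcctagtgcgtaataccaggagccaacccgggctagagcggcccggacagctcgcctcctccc
Mrpl34 (chr8:71464676-71464925, plus strand): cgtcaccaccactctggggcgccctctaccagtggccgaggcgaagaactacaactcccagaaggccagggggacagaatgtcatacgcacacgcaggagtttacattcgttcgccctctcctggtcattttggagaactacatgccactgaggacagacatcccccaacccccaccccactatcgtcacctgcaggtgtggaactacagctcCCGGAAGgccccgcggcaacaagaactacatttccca
Mrpl37 (chr4:107066867-107067116, minus strand): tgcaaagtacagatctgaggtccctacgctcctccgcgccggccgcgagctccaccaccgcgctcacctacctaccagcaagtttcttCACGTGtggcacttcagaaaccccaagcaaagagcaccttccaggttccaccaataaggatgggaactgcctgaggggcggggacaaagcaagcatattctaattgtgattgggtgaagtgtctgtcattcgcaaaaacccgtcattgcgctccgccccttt
Mrpl52 (chr14:54426659-54426908, plus strand): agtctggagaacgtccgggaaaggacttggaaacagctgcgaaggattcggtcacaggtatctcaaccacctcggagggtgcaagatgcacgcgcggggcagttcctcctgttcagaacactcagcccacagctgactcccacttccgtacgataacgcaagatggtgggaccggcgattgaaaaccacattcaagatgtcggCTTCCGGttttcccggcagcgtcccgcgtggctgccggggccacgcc

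Over the 300 bases from 250 before to 50 after the start, promoters were listed for 68 of the 77 genes. Those of Mrpl4, Mrpl13, Mrpl15, Mrpl19, Mrpl38, Mrpl54, Mrps28, Mrps34 and Mrps35 were not used here. CCGGAAG was found in 25 of the 68 genes (36.8%), against 9.93% of 27025 genes. The NRF1 motif was found in 14 (20.6%, against 7.0%), AAGATGGCG in 8 (11.8%, against 1.64%) and CACGTG in 5 (7.35%, against 8.09%). At least 1 motif was found in 43 (63.2%, against 22.6%). The 27025 genes are all those with a listed promoter, more than the 15698 named genes measured here. The shares among expressed genes alone were not taken, so the excess cannot be called particular to these genes. The members' promoters also held more G and C, with a median of 58.8% against 52.7% of all promoters, and the part of base composition in these shares was not tested. Mrps12 and Mrpl52 have CCGGAAG at or just after the start, outside the printed bases, as Mrpl37 has AAGATGGCG. Mrpl17 and Mrpl34, which edgeR called higher at 10 µM, hold CCGGAAG, and so does Mrpl52, whose values were lower there.

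The stalk of the large subunit and its base are represented by Mrpl12, Mrpl11 and Mrpl10. Mrpl12 forms the stalk where the translation factors bind. It had 47.2, 53.1 and 48.3 at 10 µM, 30.3, 25.5 and 35.1 at 0.01 µM, and 19.7, 7.81 and 6.5 in naive cells. No library at 10 µM overlapped another T cell group, and its log2 change over 0.01 µM was 0.70 ± 0.32 (limma, adjusted p = 0.211; edgeR, adjusted p = 0.00203). Mrpl11, at the base of the stalk, had 21.5, 24.0 and 19.9 at 10 µM and 8.71, 9.97 and 18.2 at 0.01 µM (0.84 ± 0.33, limma, adjusted p = 0.145; edgeR, adjusted p = 0.00255). Mrpl10, which holds the stalk to the ribosome, had 13.6, 11.6 and 11.3 at 10 µM and 7.37, 9.97 and 8.77 at 0.01 µM, a difference that no test called (edgeR, adjusted p = 0.0996).

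Of the other genes with a stated role, edgeR called Mrps30 between 10 and 0.01 µM. Mrpl1 of the L1 stalk, on the opposite side of the large subunit, had 3.95, 3.08 and 4.60 at 10 µM and 5.53, 4.87 and 5.40 at 0.01 µM (edgeR, adjusted p = 0.437). Mrpl45, which anchors the ribosome to the inner membrane where its products are inserted, averaged 11.4 ± 0.45 at 10 µM, 10.5 ± 1.6 at 0.01 µM and 4.93 ± 1.4 in naive cells (SD, n = 3 each). It rose over naive cells at 10 µM (limma, adjusted p = 0.0396) and was not called between the doses. Mrpl58, a peptidyl-tRNA hydrolase built into the large subunit, averaged 12.1 ± 1.4 at 10 µM and 9.27 ± 1.7 at 0.01 µM, against 2.18 ± 3.8 in naive cells, where it had 1 read. Of the pair named for the small subunit but found in the large one, Mrps30 had 17.5, 17.1 and 19.5 at 10 µM, 8.37, 8.81 and 15.5 at 0.01 µM and 19.7, 7.81 and 13 in naive cells, so that 10 and 0.01 µM did not overlap (edgeR, adjusted p = 0.00636) while 10 µM and naive cells did (edgeR, adjusted p = 0.0169; limma, adjusted p = 0.222). Mrps18a averaged 7.44 ± 1.5 at 10 µM, 5.93 ± 0.53 at 0.01 µM and 5.67 ± 6.7 in naive cells, and limma called it in neither comparison, while edgeR called it over naive cells (adjusted p = 0.0397).

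Of the 77 genes, 8 were too low to be tested: Mrpl22, Mrpl23, Mrpl47, Mrpl53, Mrps10, Mrps11, Mrps18b and Mrps36. The highest of them at 10 µM was Mrps11, with 63 reads over 3 libraries and a mean of 5.70, against 39 reads and 3.18 at 0.01 µM. Mrpl47 had more at 0.01 µM, with 54 reads and a mean of 4.20, against 27 reads and 2.26 at 10 µM. Mrpl23, which lies at the peptide exit, had 10 reads at 10 µM and 10 at 0.01 µM, while the pseudogene row Mrpl23-ps1 had 19, 18 and 34 reads at 10 µM and 26, 19 and 16 at 0.01 µM. Reads of the gene and its pseudogene may have been split in counting, which was not tested, so the level of Mrpl23 is uncertain. Mrps36 had 6 reads at 10 µM, 4 at 0.01 µM and 2 in naive cells.

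P13.9 fibroblasts expressed the mitochondrial ribosome as well, but with a partly different profile. Against naive T cells limma called 30 of the 69 genes higher and 5 lower in P13.9 (29.9% and 29.1% of 8179 genes), and edgeR 24 and 3 (26.5% and 23.4%). The 5 lower genes were Mrpl9, Mrpl13, Mrpl32, Mrpl35 and Mrpl49. Mrpl9, a large subunit protein with a bacterial relative, had 0.767, 1.34 and 1.77 in P13.9, against 6.55, 11.7 and 8.66 in naive cells. Its log2 change was -2.11 ± 0.42 (limma, adjusted p = 0.000299; edgeR, adjusted p = 0.0176). Mrpl49, particular to mitochondria, had 2.30, 2.01 and 3.54 in P13.9 against 6.55, 15.6 and 10.8 in naive cells (-1.68 ± 0.34, limma, adjusted p = 0.000334; edgeR, adjusted p = 0.0179). For both genes the naive value of 6.55 was 1 read. Mrpl13 had 3.83, 6.02 and 6.63 in P13.9 against 13.1, 11.7 and 19.5 in naive cells (-1.28 ± 0.31, limma, adjusted p = 0.00175; edgeR, adjusted p = 0.0690). All 3 were at least as high in every 10 µM library as in any P13.9 one.

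By edgeR, but not by limma, most of these genes were called higher in T cells at 10 µM than in the fibroblasts. The estimated changes also differed between the tests. The median log2 change was 0.43 in limma and 0.82 in edgeR for the large subunit, and 0.57 and 0.94 for the small one. Limma called 14 of the 69 higher and 2 lower at 10 µM than in P13.9 (15.6% and 26.4% of all genes), and edgeR 46 and 2 (30.3% and 28.0%). The lower ones were Mrpl50 and Mrpl52 in limma, and Mrpl50 and Mrps2 in edgeR. Without library A of 10 µM, limma called 9 genes, and the share of all genes called in that fit is not given. Mrps12 had 41.8, 33.9 and 41.0 at 10 µM against 10.7, 16.0 and 15.9 in P13.9 (1.40 ± 0.24, limma, adjusted p = 0.000146). Mrpl28, a large subunit protein with a bacterial relative, had 25.4, 19.2 and 20.1 at 10 µM against 6.90, 2.01 and 4.86 in P13.9 (2.11 ± 0.53, limma, adjusted p = 0.00343). Over all 6 groups, 45 of the 77 genes had their highest mean at 10 µM, 10 in P13.9 and 10 in naive cells. The other groups held 3, 6 and 3 at 0.01, 0.1 and 1.0 µM. The genes too low to be tested are included, and the shares of all genes are not given.

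**Figure D4:**
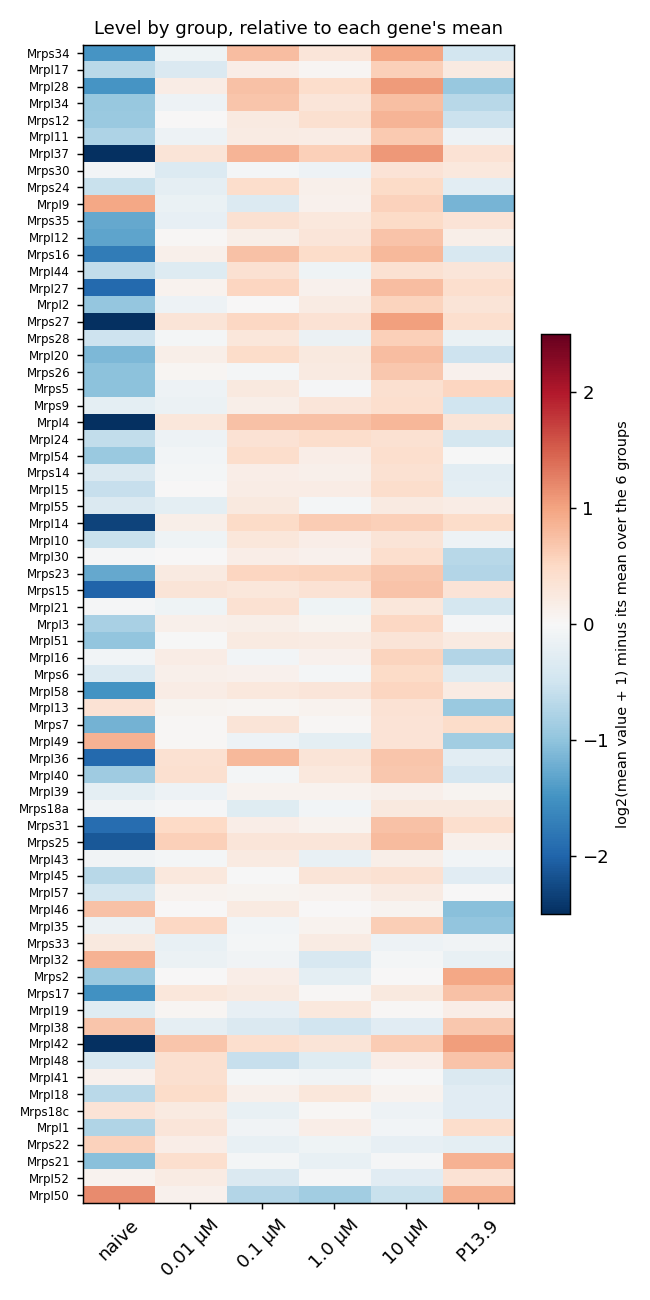
Level of the 69 tested genes (rows, ordered by change between 10 and 0.01 µM) in the 6 groups (columns). Colour is log2(group mean + 1) minus its mean over the 6 groups, from blue (low) to red (high), and values past the end of the colour bar take its end colour. Most rows are blue in naive cells and red at 10 µM, and Mrpl50, Mrpl9, Mrpl32, Mrpl49, Mrpl46 and Mrpl38 are among the rows that are red in naive cells.

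Genes that work with the mitochondrial ribosome were listed beside it. Their counts are small and stand against 24.3% of all genes higher and 32.8% lower at 10 µM than in naive cells in limma, and against 1.9% and 6.25% in limma and 15.5% and 19.3% in edgeR for 10 over 0.01 µM. Of 5 tested proteins of the ribosome without an Mrp name, 4 rose at 10 µM over naive cells and 0 fell (limma). Between 10 and 0.01 µM limma called 1 of them, Gadd45gip1, which averaged 20.2 at 10 µM and 9.09 at 0.01 µM (1.08, limma, adjusted p = 0.0141), and edgeR called 3. Dap3, a GTP-binding protein of the small subunit, averaged 25.9 at 10 µM, 12.8 at 0.01 µM and 3.32 in naive cells (10 against naive, limma, adjusted p = 0.000151). Of 9 tested assembly factors 4 rose at 10 µM over naive cells (Mtg1, Mpv17l2, Malsu1 and Ngrn) and 0 were called between 10 and 0.01 µM by limma or edgeR. Of 5 tested translation factors 0 rose and 1, Mtif2, fell against naive cells in limma (adjusted p = 0.00135; edgeR, adjusted p = 0.101). Tsfm, the exchange factor of the elongation factor, averaged 16.5 at 10 µM and 9.14 at 0.01 µM and was called between the doses by edgeR alone (adjusted p = 0.00418; limma, adjusted p = 0.579).

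Of 4 tested genes for mitochondrial transcription and RNA stability, the limma calls at 10 µM over naive cells, where 24.3% of all genes rose, were Lrpprc and its partner Slirp. Slirp averaged 18.9 at 10 µM and 4.93 in naive cells. Tfam, which packages mitochondrial DNA, averaged 15.7 at 10 µM, 17.5 at 0.01 µM and 21.3 in naive cells and was not called (10 against naive, limma, adjusted p = 0.400). Among 9 tested regulators of growth and of these promoters, 2 rose and 4 fell at 10 µM over naive cells in limma, where 24.3% and 32.8% of all genes did. Myc averaged 6.37 at 10 µM, 3.61 at 0.01 µM and 2.6 in naive cells (10 against naive, limma, adjusted p = 0.0312; 10 against 0.01 µM, adjusted p = 0.647). Mxd4, which competes with Myc for Max, averaged 6.22 at 10 µM, 12.9 at 0.01 µM and 25.4 in naive cells, and was the 1 regulator lower at 10 than at 0.01 µM (-0.98, limma, adjusted p = 0.0384). Yy1 fell as well, averaging 15.7 at 10 µM and 67.6 in naive cells (limma, adjusted p = 6.45e-06), and Nrf1 was not called (limma, adjusted p = 0.382).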

How the data were processed

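The deposited signal values are gene-level reads from 3′ sequencing that the authors divided by a DESeq2 size factor for each library, per the submitters' processing notes and the values. They list STAR 2.6.1d and HTSeq 0.9.1 among the tools, FastQC 0.11.8 too, and the build mm10. The strand setting is not given in the sources used here. Whole reads were recovered: 99.99965% of 284544 values were whole within 1e-05 reads. Rows with no gene name, 110 of 15808, were left out; they held 12.4% to 15.6% of naive reads and 1.94% to 5.36% elsewhere.

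Genes with a value of 5 or more in 3 or more libraries were tested on log2(value + 1) with limma 3.58.1 (R 4.3.3) over naive and activated libraries, or over all 18 for P13.9. Recovered reads were tested with edgeR 4.0.16 and DESeq2 1.42.0. P-values are two-sided and Benjamini-Hochberg adjusted over all genes tested. P13.9 shares are medians of a library's values over the P13.9 means, for fibroblast markers or for genes with no naive read. Leaving out libraries in the edgeR counts, and libraries left out, P13.9 subtraction and the replicate block in the fit on the 12 activated libraries, were chosen after seeing the data. The tests were checked on simulated data. Intervals are exact at 95% and cover counting error only, and a count of 0 is set to 3 reads over the group for bounds.

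Members and lists were chosen with earlier results of these data known. Named genes were the called members with the smallest adjusted p and no overlap for 10 µM against 0.01 µM and against naive cells. Members called against the majority direction and members with a stated structural role were named too. So were those with the widest and narrowest range over doses relative to replicate SD. Related genes came from fixed lists. Mrpl20, Mrps16, Mrpl28, Mrpl34, Mrpl52, Mrpl32, Mrps11, Mrpl47 and some related genes were picked after their values were seen.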

Additional observations from a re-analysis of the deposited data

How the results depend on the processing

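Calls between doses depended on the test, and naive levels are limited by depth. The counts below are of these genes only and show how calls move with the setting. Shares of all genes called with no filter, a filter of 20, DESeq2, quantile normalization, array weights, the replicate block, the subtractions or a library left out are not given. Nor is the number of these genes that passed the filter of 20. Counts under those settings are therefore not read as a result about these genes. Members called between 10 and 0.01 µM numbered 2 in the limma fit over 15 libraries, 0 with no filter, 22 in edgeR, 25 in DESeq2, 4 after quantile normalization, 33 with array weights, 18 on the 12 activated libraries, and 0 and 1 after subtracting the P13.9 share by the marker list and the second set. With the replicate letter as a block, which could be fitted for the activated groups only, 0 were called for 10 against 0.01 µM and 0 for the slope, and 16 in the fit on 12 libraries. Libraries with the same letter deviated with r from -0.197 to 0.200 (median -0.029, 18 pairs) and those with different letters from -0.251 to 0.290, so the letters were not taken to pair samples. For the dose slope (1 called) the counts were 0 with no filter and after either subtraction, 19 in edgeR, 20 in DESeq2, 24 with array weights and 13 on 12 libraries. For 0.1 against 0.01 µM they were 7 in edgeR, 6 in DESeq2, 6 on 12 libraries and 11 with array weights, and for 1.0 against 0.01 µM 1, 1 and 3 in edgeR, DESeq2 and with array weights. DESeq2 called 2 for 10 against 0.1 µM and 1 for 10 against 1.0 µM, and array weights 1 for 10 against 0.1 µM. A filter of 20 left 19, 15, 15 and 11 calls over naive cells at 10, 1.0, 0.1 and 0.01 µM, 11 for P13.9 against naive cells and 10 for 10 µM against P13.9. Array weights gave 21 for 0.01 µM against naive cells. For 10 µM against P13.9 edgeR gave 48, DESeq2 37, quantile normalization 30 and array weights 34. In the fit on 12 libraries 8 were called after subtraction by the marker list. The median change for 1.0 against 0.01 µM, 0.03, turned to -0.036 and -0.011 after the subtractions, and leaving out 1 library gave -0.025 to 0.17. For 1.0 against 0.1 µM, -0.05, it gave -0.11 to 0.012. Leaving out 1 library gave 0 to 1 calls for 10 against 0.01 µM and for the slope, 19 to 40 for 0.01 µM against naive cells, 9 to 13 for 10 µM against P13.9, 9 to 22 in edgeR and 7 to 16 on 12 libraries for 10 against 0.01 µM, and 33 to 48 in edgeR for 10 µM against naive cells. The cause was not tested.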

Other observations

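The widest gap between replicates among these genes belonged to Mrps28 at 1.0 µM, a small subunit gene that overlaps 3 other genes. Library B had 2 reads, a normalized value of 0.669, where the mean of the other 2 libraries was 20.7, a level worth 61.9 reads in library B.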
